A study of Mus musculus with 7 samples.

Results

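The miRNAs of testis explants cultured with AlbuMAX I or with KSR were compared in a pair of small RNA libraries, T6-12A and T6-12K. These were 2 of the 7 libraries sequenced, and all 331 miRNAs listed for the series were considered. The explants came from mice of the outbred strain CD1 at 6.5 dpp (days post-partum), an age given as 6 days in another label field. They were cultured for 12 days at the gas-liquid interphase over agarose, in a medium with antibiotics that differed only in its supplement. KSR is a defined replacement for serum, and AlbuMAX I is a bovine serum albumin rich in lipids. The paper describes AlbuMAX I as an element of KSR, so the contrast is of a component against the supplement that contains it. The other 5 libraries were made from testes taken at 6.5 dpp (T6) and 10.5 dpp (T10) without culture, from 10.5 dpp testes after 12 days with KSR (T10-12K) or AlbuMAX I (T10-12A) and from testes of 2-month-old adults (TAD). No gene had been altered in any of these animals. There was 1 library per condition, the number of animals behind a library is not given in the sources used here, and no difference between libraries could be tested against the spread between replicates.

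miRNAs are short RNAs that are cut from a hairpin as a 5p and a 3p arm and guide Argonaute proteins to mRNAs, which are recognised largely through the seed, bases 2 to 8 of the miRNA. Many are made from clusters transcribed together, and some clusters are typical of a lineage. In the mouse testis, a cluster on the X chromosome is expressed in spermatogonia, spermatocytes and Sertoli cells, the miR-34 and miR-449 family accumulates as germ cells enter meiosis and form spermatids, and miRNAs of the Hox clusters mark positional identity in somatic cells. A change of a miRNA in whole tissue can come from fewer cells of a type or from less of the RNA per cell, and bulk libraries cannot tell these apart.

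The deposited values were converted to reads, and each library was scaled to its reads on listed miRNAs, as CPM (counts of a miRNA per 1000000 reads on listed miRNAs). In T6-12K there were 9934580 such reads and in T6-12A 10793767, within the range of the series (1628770 in TAD to 13397407 in T10). All intervals are 95% intervals for counting error only. No miRNA was listed with 1 to 4 reads. A value of 0 was therefore taken to stand for fewer than 5 reads, worth 0.503 CPM in T6-12K and 0.463 CPM in T6-12A. In T6-12K 18 miRNAs were listed at 0, and in T6-12A 12. The composition of T6-12K stood apart from that of the other libraries. Only 11 miRNAs made up 90% of its reads, against 16 in T6-12A and 16 to 23 in the other 5, and the most abundant pair, miR-10b-5p and miR-143-3p, took 75.7% of its reads against 67.7% in T6-12A.

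The miRNAs that differed most between the supplements included several pairs of close relatives, of which the sequences are shown because the members of a pair behaved differently. They are the RefSeq sequences on GRCm38.p6, written 5′ to 3′ with the seed in capitals. Among the miRNAs of the Hox clusters, miR-10a-5p (chr11:96317186-96317208, plus strand) and miR-10b-5p (chr2:74726074-74726096, plus strand) differ by the substitution U12A, and miR-196b-5p (chr6:52230129-52230150, minus strand) and miR-196a-5p (made from a copy on chromosome 11 and another on chromosome 15) differ by C12A, with positions counted from 1 at the 5′ end and the base of the first-named miRNA written first. In the epithelial miR-200 family, miR-141-3p (chr6:124717917-124717938, minus strand) and miR-200a-3p (chr4:156054911-156054932, minus strand) have the same seed and differ by A17C and G22U.
miR-10a-5p: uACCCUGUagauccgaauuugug
miR-10b-5p: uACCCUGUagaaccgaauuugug
miR-196b-5p: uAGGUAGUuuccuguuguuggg
miR-196a-5p: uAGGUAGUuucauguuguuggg
miR-141-3p: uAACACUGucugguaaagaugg
miR-200a-3p: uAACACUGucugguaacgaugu

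The second set is shown because it holds the abundant miRNAs called higher with AlbuMAX I, with some of their relatives. From the X-linked cluster these were miR-743b-3p (chrX:66777266-66777287), miR-465c-5p (2 copies, chrX:66826004-66826025 and chrX:66832566-66832587) and miR-871-5p (chrX:66810472-66810494), all on the minus strand, with miR-743a-3p (chrX:66776760-66776781, minus strand) as the relative of the first and miR-470-5p (chrX:66813995-66814017, minus strand) as the most abundant member. From chromosome 13 it was miR-449a-5p (chr13:113037549-113037570, plus strand), shown with its sparser neighbour miR-449c-5p (chr13:113036008-113036028, plus strand). miR-743a-3p and miR-743b-3p share a seed, as do miR-449a-5p and miR-449c-5p.
miR-743b-3p: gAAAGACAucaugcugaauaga
miR-743a-3p: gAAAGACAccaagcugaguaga
miR-465c-5p: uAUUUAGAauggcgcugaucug
miR-871-5p: uAUUCAGAuuagugccagucaug
miR-470-5p: uUCUUGGAcuggcacuggugagu
miR-449a-5p: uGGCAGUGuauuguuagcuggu
miR-449c-5p: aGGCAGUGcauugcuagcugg

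The first question was how far the supplement shifted the miRNA profile as a whole. In CPM most miRNAs were higher in T6-12A than in T6-12K, with 238 above and 73 below among the 311 that had reads in both libraries. The median log2 ratio of T6-12A to T6-12K was 0.63, and for the 106 abundant miRNAs, whose mean level over the pair reached 100 CPM, it was 0.66, with 94 above and 12 below. This shift depended on the scaling. When size factors were computed as the median of ratios over the 7 libraries, which holds the typical miRNA constant, every log2 ratio was 0.56 lower, the median became 0.07, and 165 miRNAs lay above and 146 below 0. The same change of scaling multiplied levels relative to T6 by 1.98 in T6-12K and by 1.35 in T6-12A, and levels set beside the uncultured testes are in CPM unless stated. A shift of the typical miRNA and the larger share of the reads held by the few most abundant miRNAs in T6-12K are the same observation on this scale, since CPM have the same total in each library. The relation of the ratio to the mean level (r = 0.03 over 311 miRNAs) and to the GC content of the miRNA (r = -0.06 over 273 miRNAs with a sequence) was weak, across miRNAs of the same pair of libraries.

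A miRNA was therefore called higher or lower with AlbuMAX I only if its ratio reached 2-fold in CPM and under the median-of-ratios scaling, with an interval off equality in both. This rule called 35 miRNAs higher (10.6% of the 331) and 18 lower (5.44%). CPM alone would have called 85 higher (25.7%) and 18 lower, and the median-of-ratios factors alone 35 higher and 43 lower (13%). Most calls concerned sparse miRNAs. Among the 106 abundant miRNAs, 4 were called higher (miR-743b-3p, miR-449a-5p, miR-871-5p and miR-465c-5p) and 3 lower (miR-10a-5p, miR-486a-5p and miR-486b-5p). In the plot of levels in both libraries, these 7 lie on either side of the main band of points.

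**Figure D1:**
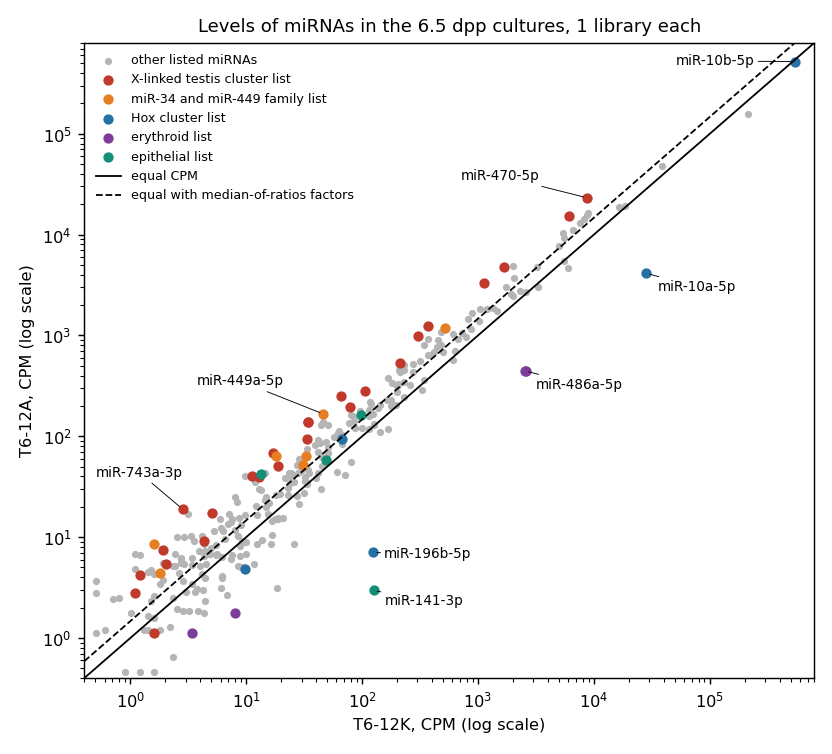
Each point is 1 of the 311 miRNAs with reads in both libraries, with its level in T6-12K on the horizontal and in T6-12A on the vertical axis (CPM, log scales). The solid line marks equal CPM and the dashed line equality with median-of-ratios factors, 0.56 higher on the log2 scale; colours mark 5 lists. Points of the X-linked cluster lie above both lines with 1 exception, and miR-10a-5p, miR-196b-5p, miR-141-3p and miR-486a-5p lie far below both.

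The X-linked testis cluster held the most calls. Of its 26 listed members, 24 lie in 62.4 kb of the minus strand (chrX:66776760-66839121), and miR-201-5p and miR-547-3p lie further along the chromosome. With genes of small RNAs and unconfirmed genes left out, GENCODE release M21 annotates no host gene over any of these hairpins. In all, 12 of the 26 members were called higher with AlbuMAX I and none lower, beside 10.6% and 5.44% over all listed miRNAs. The median log2 ratio of the 25 members with reads in both libraries was 1.55 in CPM and 1.00 under the other scaling, beside 0.63 and 0.07 for all miRNAs. The 12 other members with more reads in T6-12A all exceeded 2-fold in CPM (log2 ratios of 1.08 to 1.55) but stood at 0.53 to 1.00 with the second scaling, and so were not called.

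miR-743b-3p had 66.1 CPM in T6-12K and 251 CPM in T6-12A, a log2 ratio of 1.93 (1.80 to 2.05) by CPM and 1.37 (1.25 to 1.49) by median of ratios. Its level in T6-12A was close to the 239 and 232 CPM of T10-12K and T10-12A, and T6-12K was the lowest of all 7 libraries, below the 166 CPM of T6, the 397 CPM of T10 and the 831 CPM of TAD. miR-871-5p was likewise lowest in T6-12K, with 368 CPM in T6-12K, 1251 CPM in T6-12A, 1340 and 1249 CPM in T10-12K and T10-12A, 1840 CPM in T6, 3509 CPM in T10 and 4104 CPM in TAD. For miR-465c-5p the values were 304 CPM in T6-12K, 988 CPM in T6-12A, 1267 and 1115 CPM in T10-12K and T10-12A, 1949 CPM in T6, 2865 CPM in T10 and 4020 CPM in TAD. The fold difference between the supplements at 6.5 dpp was 3.40 for miR-871-5p and 3.25 for miR-465c-5p in CPM, and 2.31 and 2.21 with the other scaling. In these 3 miRNAs the 3 other cultures lay close together, and T6-12K was the library that stood apart.

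The highest ratio of the cluster belonged to miR-743a-3p, at 2.82 CPM in T6-12K and 19.0 CPM in T6-12A, a log2 ratio of 2.75 (2.18 to 3.32) from 28 and 205 reads. All 4 listed miR-743 products were called, and their summed level was 3.79-fold higher with AlbuMAX I. The miR-465 genes are near-identical copies whose reads could not be assigned with certainty. miR-465a-3p, miR-465b-3p and miR-465c-3p have 1 mature sequence, the last 2 were listed with the same 341 and 1490 reads, and all 3 were among the 12 called. As a group the miR-465 products were 3.39-fold higher in T6-12A. miR-465b-5p was listed at 0 in both libraries, and had 102 CPM in T10-12A and 0 in T10-12K. miR-470-5p, which supplied the largest part of the cluster, was not called, with 8705 CPM in T6-12K and 23165 CPM in T6-12A (log2 ratios of 1.41 and 0.86). The single member with fewer reads in T6-12A was miR-883b-3p, with 16 reads in T6-12K, 12 in T6-12A and an interval of -1.61 to 0.55.

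Summed over its members, the cluster stood at 52845 CPM in T6, 18912 CPM in T6-12K and 50637 CPM in T6-12A, which is 35.8% of the level before culture for T6-12K and 95.8% for T6-12A. By median of ratios these shares were 70.9% and 129%, and the level of T6-12K remained the lowest of the 7. The sums in the 10.5 dpp cultures were 58999 CPM with KSR and 68401 CPM with AlbuMAX I, and 95943 CPM in T10 and 137357 CPM in TAD. In CPM T6-12A lay next to T6 and T10-12K. Over all listed miRNAs, 31 were at least 2-fold lower in T6-12K than in every other library, and 21 of these belonged to the cluster. With median-of-ratios factors this number was 6, of which 4 were of the cluster.

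**Figure D2:**
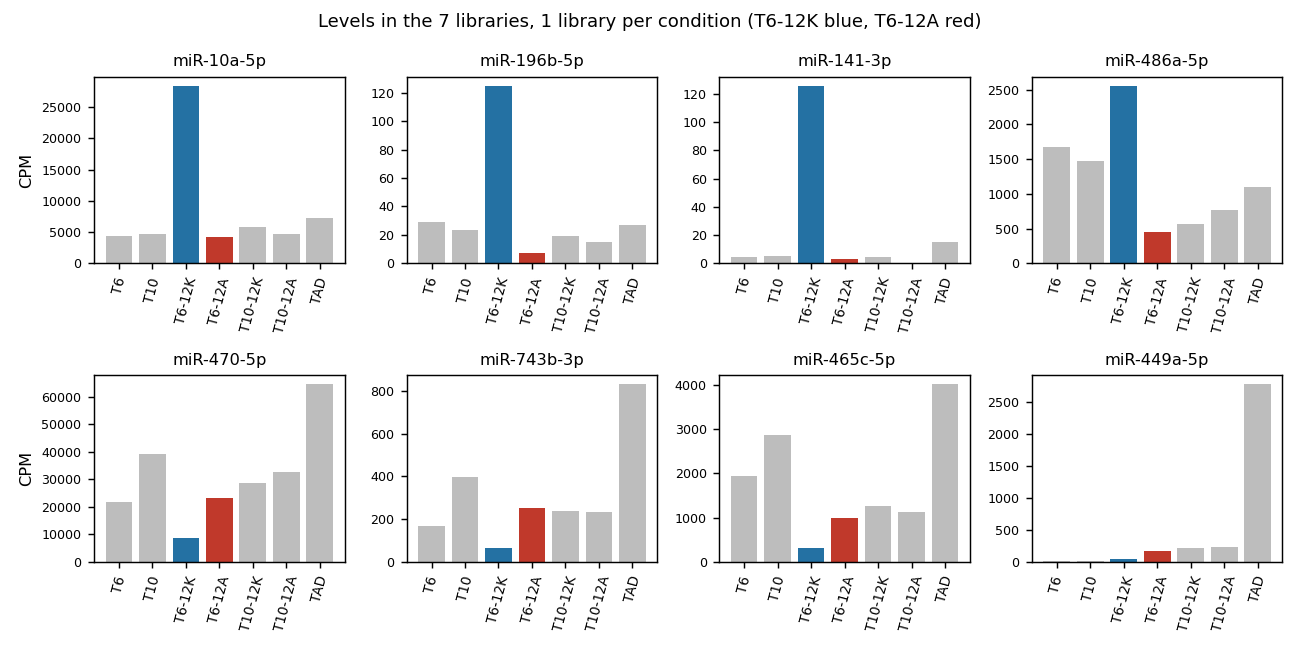
Levels of 8 miRNAs in CPM (vertical axis, from 0, with a scale for each panel) in the 7 libraries, 1 bar per library, with T6-12K in blue and T6-12A in red. In the upper panels T6-12K exceeds all 6 other libraries. In the lower panels T6-12K is below T6-12A and the other cultures, and miR-449a-5p is near 0 before culture and highest in TAD.

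The miR-34 and miR-449 family, made from loci on chromosomes 4, 9 and 13, was also higher with AlbuMAX I. Of its 7 listed members 3 were called higher and none lower, beside 10.6% and 5.44% over all miRNAs. All 7 lay above 0 under both scalings, as did 76.5% of all miRNAs in CPM and 53.1% by median of ratios, and their median log2 ratios were 1.30 and 0.74. miR-449a-5p had 46.3 CPM in T6-12K and 166 CPM in T6-12A, with log2 ratios of 1.85 (1.70 to 1.99) and 1.29 (1.14 to 1.44). It stood at 8.01 and 6.05 CPM in T6 and T10, at 208 and 224 CPM in T10-12K and T10-12A, and at 2771 CPM in TAD. Thus both 6.5 dpp cultures exceeded the uncultured testes, and T6-12A came closer to the 10.5 dpp cultures than T6-12K did. miR-449c-5p, which lies with miR-449a-5p in introns of Cdc20b on the same strand, rose with it from 17.9 to 63.3 CPM, and miR-449a-5p made up 72.1% of the pair in T6-12K and 72.4% in T6-12A. miR-34b-3p was the third called member, at 1.61 and 8.52 CPM.

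The other members did not pass the rule. miR-34c-5p, the most abundant of the family, had 514 CPM in T6-12K and 1193 CPM in T6-12A, log2 ratios of 1.22 and 0.66, and its partner arm miR-34c-3p gave 1.30 and 0.74. The log2 ratios of miR-34b-5p were 0.95 and 0.39, and those of miR-34a-5p, a target of p53 that is made from its own locus, were 0.73 and 0.17. The summed level of the family was 99.8 CPM in T6, 646 CPM in T6-12K and 1551 CPM in T6-12A, a 2.40-fold difference, against 2048 and 1928 CPM in T10-12K and T10-12A and 25937 CPM in TAD. T6-12K therefore stood at 647% and T6-12A at 1553% of T6 in CPM, and at 1282% and 2094% by median of ratios. Both were well under the adult level.

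Among the miRNAs of the Hox clusters the direction was the opposite for 3 of the 5 listed members, which were called lower with AlbuMAX I. None was called higher, beside 5.44% called lower and 10.6% called higher over all miRNAs. miR-10a-5p, encoded in the Hoxb cluster, had 28387 CPM in T6-12K and 4137 CPM in T6-12A, and was 6.86-fold lower by CPM and 10.1-fold lower by median of ratios. By level it ranked 4 among the 331 miRNAs in T6-12K and 21 in T6-12A. The other libraries held 4330 CPM (T6), 4690 CPM (T10), 5818 CPM (T10-12K), 4745 CPM (T10-12A) and 7185 CPM (TAD), and T6-12K exceeded the next highest by 3.95-fold. In CPM T6-12A was thus level with the uncultured testes, and T6-12K stood apart.

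The listed relative of miR-10a-5p changed far less. miR-10b-5p, encoded in introns of Hoxd3 and Hoxd4 and the most abundant miRNA of every library, stood at 544136 CPM in T6-12K and 520447 CPM in T6-12A. Its log2 ratio was -0.06 in CPM and -0.62 by median of ratios. Of the reads of the pair, miR-10a-5p took 4.96% (4.94 to 4.98) in T6-12K and 0.789% (0.781 to 0.796) in T6-12A, and this share does not depend on any scaling. Before culture it was 0.933% (T6), after culture at 10.5 dpp 1.18% with KSR and 0.930% with AlbuMAX I, and in the adult 2.25%. As shown by the sequences above, the pair is told apart by base 12 alone. The counting intervals of the share do not cover reads assigned to the wrong member of the pair.

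miR-196b-5p, whose hairpin overlaps an exon of Hoxa9, had 125 CPM in T6-12K and 7.04 CPM in T6-12A, a log2 ratio of -4.15 (-4.48 to -3.81) in CPM and -4.70 with the other scaling. The other 5 libraries lay between 15.1 CPM in T10-12A and 28.7 CPM in T6. T6-12K was therefore the highest and T6-12A the lowest of the 7, at a distance of 4.34-fold and 2.15-fold from the nearest library. miR-196a-5p, which is encoded in other Hox clusters and differs from it at base 12, went from 67.2 to 93.9 CPM (log2 ratios of 0.48 and -0.07) and was not called. The share of miR-196b-5p in the pair was 65.0% (62.8 to 67.1) in T6-12K and 6.98% (5.61 to 8.65) in T6-12A. It was 14.5% in T6, 16.3% in T10, 23.7% in T10-12K, 24.2% in T10-12A and 69.8% (57.6 to 79.8) in TAD. The third called member, miR-615-3p, was at the threshold, with 9.66 and 4.82 CPM and a log2 ratio of -1.004 (-1.491 to -0.517).

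The epithelial list, made up of the miR-200 family and miR-205, was divided. Of its 5 listed members 1 was called higher and 2 lower, beside 10.6% and 5.44% over all miRNAs. miR-141-3p had 126 CPM in T6-12K and 2.97 CPM in T6-12A, from 1248 and 32 reads, a log2 ratio of -5.41 (-5.91 to -4.90). The remaining libraries held 4.27 CPM in T6, 5.23 CPM in T10, 4.38 CPM in T10-12K, 0 in T10-12A and 15.3 CPM in TAD, so that T6-12K exceeded all of them by at least 8.18-fold. miR-205-5p, a marker of stratified epithelia, had 208 reads (20.9 CPM) in T6-12K and was listed at 0 in T6-12A, which makes it at least 45.2-fold lower with AlbuMAX I. It was at 2.02 CPM in T6, 2.17 CPM in T10, 0.828 CPM in T10-12A and 0 in T10-12K and TAD. Its hairpin (chr1:193507463-193507530) overlaps an exon of the non-coding RNA 4631405K08Rik.

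In contrast, miR-200a-3p was called higher, with 13.3 CPM in T6-12K and 42.2 CPM in T6-12A (log2 ratios of 1.67 and 1.11). miR-200b-3p and miR-429-3p, made from the same cluster on chromosome 4, had log2 ratios of 0.28 and 0.74 in CPM and were not called. miR-141-3p took 90.4% (88.8 to 91.9) of the reads of the pair with miR-200a-3p in T6-12K and 6.56% (4.68 to 9.11) in T6-12A, against 35.4% in T6. The log2 ratio of miR-141-3p was 7.07 below that of miR-200a-3p, with a standard error of 0.30 from counting. Of the 38 seeds shared by 2 or more listed miRNAs, that of this pair was the only one with both a higher and a lower call. miR-200c, which is made together with miR-141 from chromosome 6, was not among the 331 listed miRNAs, so that miR-141-3p could not be set beside it.

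The list of erythroid miRNAs had 4 of 7 listed members called lower and none higher, beside 5.44% and 10.6% over all miRNAs. However, all 4 were products of miR-486. miR-486a-5p had 2554 CPM in T6-12K and 445 CPM in T6-12A, log2 ratios of -2.52 (-2.57 to -2.48) and -3.08. T6 stood at 1678 CPM, T10 at 1476 CPM, T10-12K at 564 CPM, T10-12A at 762 CPM and TAD at 1103 CPM, and here T6-12A was the lowest and T6-12K the highest library. miR-486b-5p is made from the same locus and gave nearly the same values (2571 and 442 CPM), and the reads of the pair could not be told apart. The defining erythroid miRNAs, miR-451a, miR-144-3p and miR-144-5p, were listed at 0 in both libraries, while they were present in T6 at 8.98, 1.27 and 6.66 CPM. The miRNAs of miR-486 are also known from striated muscle, where they lie in an intron of the ankyrin gene Ank1. The muscle list had 1 listed member, miR-133a-3p, which was called lower, from 25.9 CPM in T6-12K to 8.62 CPM in T6-12A, beside 23.3 CPM in T6. The part that any of these cell types had in the differences was not tested.

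**Figure D3:**
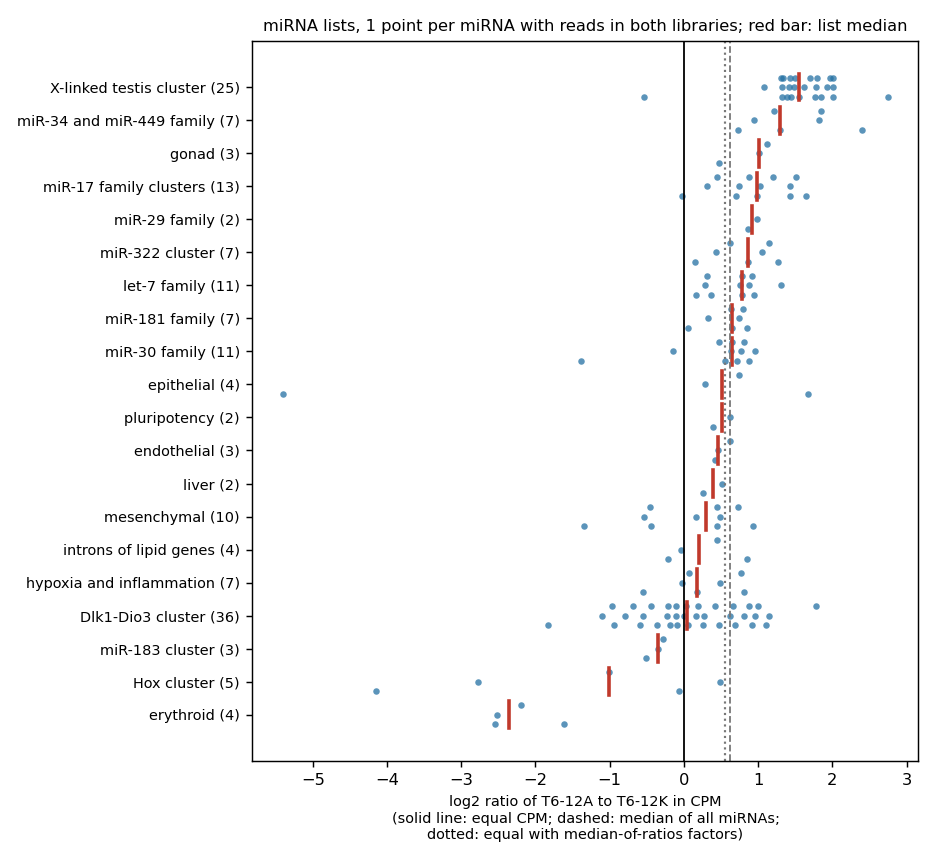
Log2 ratios of T6-12A to T6-12K in CPM (horizontal axis) for the members of each list with reads in both libraries, 1 point per miRNA, with the list median as a red bar and the number of members in brackets; the list of striated muscle and that of leukocytes have 1 such member and are left out. The solid line marks equal CPM, the dashed line the median of all miRNAs (0.63) and the dotted line equality with median-of-ratios factors (0.56). Of the medians, that of the X-linked cluster is the highest, at 1.55, and those of the Hox cluster and erythroid lists are the lowest, at -1.004 and -2.36.

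The remaining lists held few calls, beside 10.6% called higher and 5.44% called lower over all miRNAs. None of the 11 let-7 products, the family that represses LIN28 and accumulates on differentiation, was called, although all 11 lay above 0 in CPM (median 0.78) and 7 of 11 with median-of-ratios factors (0.22). let-7b-5p had the highest ratio of the family, with 370 and 913 CPM (1.30 and 0.75), and let-7f-5p, the most abundant, had 38840 and 48118 CPM (0.31 and -0.25). Of the 13 products of the miR-17 cluster and its relatives, which promote cell cycle entry, miR-17-5p alone was called higher, with 8.05 and 25.2 CPM, and the list had medians of 0.98 and 0.43. Among the 38 listed products of the imprinted Dlk1-Dio3 cluster, miR-382-5p was called higher (7 and 26 reads) and miR-380-3p and miR-666-5p lower, with medians of 0.05 and -0.51. The list stood at 27.0% of its T6 level in T6-12K and 28.0% in T6-12A, in CPM, and at 53.5% and 37.7% by median of ratios, so that both cultures lay below T6 and the order of the supplements depended on the scaling.

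Markers of stromal and other cells held few calls, beside the same shares of 10.6% higher and 5.44% lower over all miRNAs. Of the 10 mesenchymal products 1, miR-143-5p, was called lower (6.84 and 2.69 CPM). Its abundant partner arm miR-143-3p, typical of smooth muscle, had 212659 CPM in T6-12K and 156675 CPM in T6-12A and log2 ratios of -0.44 and -0.997, and was not called. The summed level of the mesenchymal list was 214637 CPM in T6-12K and 159291 CPM in T6-12A, beside 107416 CPM in T6. No member was called in the lists for leukocytes (2 listed, 1 with reads in both), endothelium (3), liver (2), pluripotency (2), hypoxia and inflammation (7), introns of lipid genes (5), gonad (3), the miR-183 cluster (3), the miR-322 cluster (8), miR-29 (2), miR-30 (11) and miR-181 (7). miR-210-3p, which responds to hypoxia, had 178 and 202 CPM and log2 ratios of 0.18 and -0.38. Both libraries exceeded the 71.5 CPM of T6. miR-21a-5p, which rises in injury and inflammation, was also higher in both cultures than in T6 (5522 CPM with KSR, 5445 CPM with AlbuMAX I and 2018 CPM in T6), with a log2 ratio between the supplements of -0.02 in CPM and -0.58 by the other scaling.

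Further miRNAs with a known role in the gonad lay above 0 in CPM without being called. miR-375-3p had 210 CPM in T6-12K and 455 CPM in T6-12A (1.12 and 0.56), beside 99.8 CPM in T6 and 9015 CPM in TAD. miR-202-5p, which is typical of the gonad, had 86.2 and 120 CPM (0.48 and -0.08). miR-101a-3p had 1995 and 4929 CPM (1.30 and 0.75) and was likewise higher with AlbuMAX I at 10.5 dpp, at 3244 and 5985 CPM. Of the miRNAs in introns of genes of lipid metabolism, miR-33-5p, from Srebf2, was at 0 in T6-12K and had 14 reads in T6-12A, which did not pass the rule, and miR-103-3p had 812 and 1471 CPM (0.86 and 0.30).

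The lists accounted for 18 of the 35 higher and 13 of the 18 lower miRNAs, and the others are named after their values were seen. Those with the most reads among the 17 other higher ones were miR-140-3p, which is made from within Wwp2, a gene of cartilage and other tissues (45.9 and 140 CPM), miR-425-5p (14.5 and 43.5 CPM) and miR-1195 (9.66 and 40.8 CPM). The other arm, miR-140-5p, was called as well, with 11 and 52 reads. miR-877-5p, a mirtron of Abcf1, had 5 and 40 reads. miR-669a-5p was listed at 0 in T6-12K with 62 reads in T6-12A. If that 0 stands for fewer than 5 reads, the miRNA was at least 11.4-fold higher. A 0 may also depend on how reads fitting several miRNAs were counted, which is not given. The 5 other lower miRNAs were miR-6240 (183 and 34 reads), miR-339-5p, miR-574-3p, miR-7230-5p and miR-138-5p, which had 27 reads in T6-12K and was listed at 0 in T6-12A. All had under 200 reads in either library.

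The next question was which library departed from the others. Among the 35 miRNAs called higher, T6-12K was the lowest of the 4 cultures in 31 and T6-12A the highest in 22. These positions are in CPM, by which T6-12K was the lowest of the 4 in 54.4% of all 331 miRNAs and T6-12A the highest in 38.1%. Among the 18 called lower, T6-12K was the highest in 15 and T6-12A the lowest in 12, beside 13.3% and 10.6% over all miRNAs. By median of ratios, T6-12K was the lowest in 30 and T6-12A the highest in 20 of the higher ones, beside 30.5% and 25.1% of all miRNAs, and T6-12K the highest in 16 and T6-12A the lowest in 12 of the lower ones, beside 28.1% and 21.1%. The excess of miRNAs lowest in T6-12K over those highest in it was thus large in CPM and small by the other scaling. A call makes either position more likely by itself, so these counts only describe where the called miRNAs lay. In CPM 4 miRNAs were at least 2-fold higher in T6-12K than in every other library (miR-10a-5p, miR-196b-5p, miR-141-3p and miR-205-5p), and by median of ratios there were 7, with miR-486a-5p, miR-486b-5p and miR-6240 in addition. No miRNA stood above all others in T6-12A in this way under either scaling. Below all others in T6-12A stood 3 in CPM (miR-196b-5p, miR-30b-3p and miR-138-5p) and 4 by median of ratios (miR-196b-5p, miR-30b-3p, miR-872-3p and miR-883b-3p). On log2(CPM + 1) values the distance between T6-12A and T6-12K was 18.5. T6-12A was nearer to T10-12K (11.9) and T10-12A (13.6), which themselves were 12.2 apart, and T6-12K lay 17.6 and 20.4 from them. The pair thus differed more than 4 of the other 5 pairs of cultures. T6-12A was also the nearer of the pair to T6 (27.9 against 32.1) and to TAD (33.8 against 39.7).

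The same supplements were compared at 10.5 dpp, in libraries that share no sample with the 6.5 dpp pair. There the median log2 ratio was -0.03 in CPM, with 145 miRNAs above and 161 below 0, and 14 miRNAs (4.23%) were called higher and 18 (5.44%) lower. Of the 35 miRNAs called higher at 6.5 dpp, 5 were also called higher at 10.5 dpp (miR-342-5p, miR-877-5p, miR-883b-5p, miR-3086-5p and miR-3535), or 5 of the 14 called at that age. All 5 were sparse, with under 20 CPM in either 6.5 dpp culture. Of the 18 lower ones, 4 were also called lower (miR-141-3p, miR-133a-3p, miR-574-3p and miR-615-3p), again 4 of the 18 called at 10.5 dpp, and none was called in the opposite direction. The 32 higher ones with reads in both 10.5 dpp cultures had a median log2 ratio of 0.12 there, with 18 above and 14 below 0, and the 16 lower ones a median of -0.28, with 7 above and 9 below.

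By family, the X-linked cluster had a median of -0.04 at 10.5 dpp against 1.55 at 6.5 dpp, and the miR-34 and miR-449 family -0.11 against 1.30. miR-10a-5p stood at -0.29 and miR-196b-5p at -0.34, and the miR-486 products had a positive median, 0.44, against -2.36 at 6.5 dpp. miR-141-3p was lower with AlbuMAX I at both ages, but with only 31 reads in T10-12K. These are values of 1 library per condition, and the difference between the ages was not tested.

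**Figure D4:**
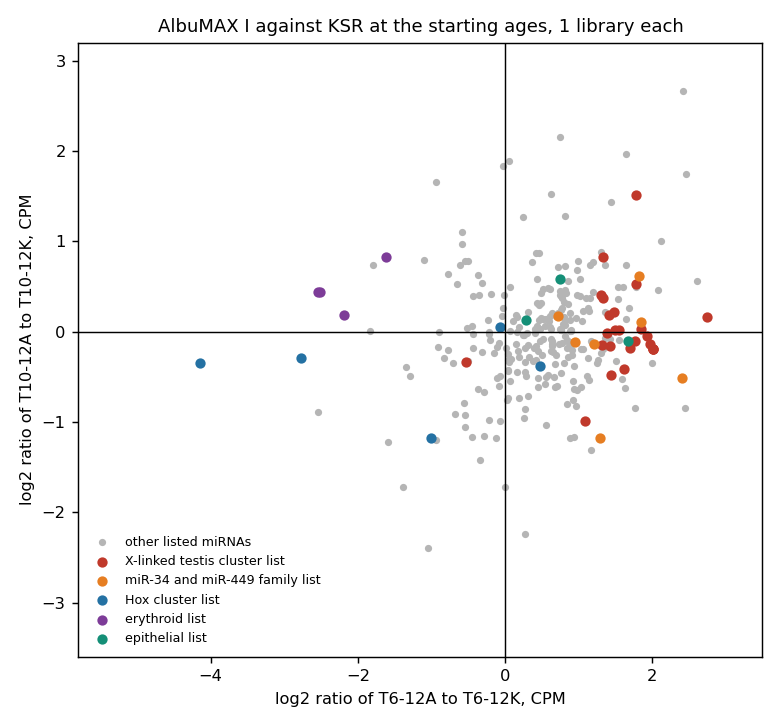
Log2 ratios of AlbuMAX I to KSR in CPM for the miRNAs with reads in all 4 cultures, at 6.5 dpp (horizontal axis) and at 10.5 dpp (vertical axis), 1 point per miRNA and 1 library per condition; colours mark 5 lists. The X-linked cluster and the miR-34 and miR-449 family lie to the right of 0, except miR-883b-3p, while their medians at 10.5 dpp are -0.04 and -0.11, and miR-10a-5p and miR-196b-5p lie far left at -0.29 and -0.34 on the vertical axis.

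To see how the difference between the supplements lay along testis maturation, the miRNAs were divided by their level in TAD against both T6 and T10. Of the 55 miRNAs (16.6%) at least 2-fold higher in TAD than in either prepuberal testis, 7 were called higher with AlbuMAX I (12.7%) and 3 lower (5.45%), near the 10.6% and 5.44% of all miRNAs, and the 51 with reads in both libraries had medians of 0.84 by CPM and 0.28 by median of ratios. Once the X-linked cluster and the miR-34 and miR-449 family were removed, 2 of 42 were called higher and 3 lower, and the medians of the 38 with reads were 0.71 and 0.15, close to the 0.63 and 0.07 of all miRNAs. Of the 100 (30.2%) at least 2-fold lower in TAD, 7 were called higher (7%) and 6 lower (6%), with medians of 0.44 and -0.11 over 97. The ratio of the supplements correlated weakly with the ratio of TAD to the prepuberal mean across the 311 miRNAs (r = 0.17) and across the 106 abundant ones (r = 0.26), which are not independent and share the libraries.

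Arms of the same hairpin are measured as separate miRNAs and were used as an internal comparison. In 67 hairpins both arms had reads in both libraries, and their log2 ratios correlated with r = 0.74 (Spearman rho = 0.73), with a median difference of 0.33. In 43 hairpins the arms differed by less than the counting error and in 24 by more. Among the 36 hairpins with at least 50 reads for each arm and library, r was 0.81. The 5p and 3p arms of miR-871 gave 1.76 and 1.33, those of miR-743b 1.62 and 1.93, and those of miR-486a -2.52 and -2.19. In each of these hairpins both arms had the same direction. The arms of miR-871 nevertheless differed beyond the counting error, and its 3p arm was not called. The arms of miR-34b (0.95 and 2.40) and miR-883b (1.79 and -0.53) also differed beyond the counting error, the latter with few reads.

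**Figure D5:**
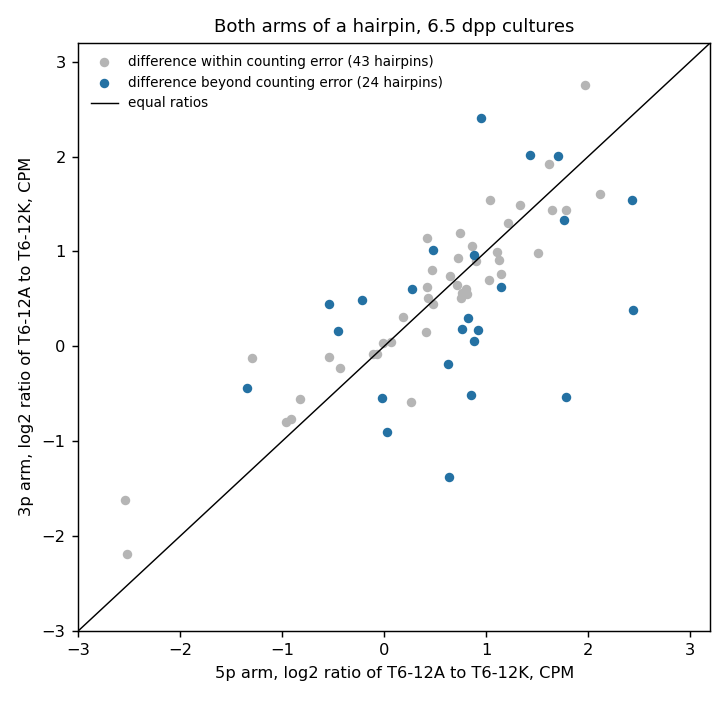
Log2 ratio of T6-12A to T6-12K in CPM for the 5p arm (horizontal axis) and the 3p arm (vertical axis) of 67 hairpins, 1 point per hairpin. Grey points (43) differ between the arms by less than the 95% counting error and blue points (24) by more; the line marks equal ratios. Most points run along the line, with r = 0.74.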

How the data were processed

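For each library the authors deposited 1 signal per mature miRNA. By the study's methods, adaptors were trimmed and reads were aligned with Bowtie to mm10 and annotated with miRBase 21, and miRNAs under 50 reads were discarded. FastQC, HTSeq and DESeq stand in the submitters' processing notes without versions. How reads fitting several miRNAs were counted is not given in the sources used here. The per-library tables equal the series table and were not used. Within a library all signal values below 10000 reads were whole multiples of 1 number (100%, tolerance 0.02 reads), by which they were divided to obtain reads. No count model was fitted, since each condition had 1 library and no test or p-value could be had.

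Ratios at 0 reads used 5 reads and are bounds. Shares have Wilson intervals and ratios intervals on the log scale. The recovery of reads, and of calls by median of ratios alone, was tested on simulated data with changes far above 2-fold. The rule of 2-fold under both scalings was not tested in this way. Named miRNAs were, among those with a mean of at least 100 CPM, the 12 with the largest and the 12 with the smallest ratio; the 10 most abundant; the 9 named by the study; and 22 lists. These members and lists were chosen with earlier results of these data known. Sequences matched for 288 of 331 miRNAs. Hairpin positions came from the same reference as the sequences. Genes overlapping them were taken from the mouse release M21 of GENCODE, leaving out genes of small RNAs and unconfirmed genes. The computations used matplotlib 3.10.9, scipy 1.17.1, pandas 2.3.3, numpy 2.4.6 and Python 3.11.15. RT-qPCR, cytology, piRNAs and read lengths were not analysed here. The paper reports that explants with AlbuMAX I were smaller and that their cells often had aberrant nuclei. Its cytological data therefore come from the KSR cultures only.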

Additional observations from a re-analysis of the deposited data

Results flagged for a closer look

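Ratios of AlbuMAX I to KSR lay on opposite sides of equality at 6.5 and 10.5 dpp, with counting intervals off equality at both ages under each of 4 scalings, in 44 of the 331 miRNAs and in 29 of the 106 with a mean of at least 100 CPM. Of the 34 miRNAs named by rank of ratio, by abundance or by the study they included 12. The 34 were partly chosen for an extreme 6.5 dpp ratio, so that their count is not set against the others. With 1 library per condition the difference was not tested. As the 6.5 dpp log2 ratio minus the 10.5 dpp one in CPM, it was negative for miR-486b-5p (-2.98), miR-486a-5p (-2.96), miR-182-5p (-0.758), miR-21a-5p (-0.282) and miR-10b-5p (-0.112). It was positive for let-7a-5p (0.899), miR-181a-5p (0.949), miR-34c-5p (1.35), miR-878-5p (1.47), miR-375-3p (1.61), miR-871-5p (1.87) and miR-465c-5p (1.89). For the positive ones the 10.5 dpp ratio lay between -0.50 for miR-375-3p and -0.10, so that most of the difference in CPM came from the 6.5 dpp pair. The 6.5 dpp ratios were lower by median of ratios, at 0.22 for let-7a-5p and 0.56 for miR-375-3p.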

How the results depend on the processing

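No paired analysis was possible because each condition had 1 library, and for the same reason no replicate could be left out. The 35 higher calls became 85 in CPM alone, 61 with the deposited scaling, 77 in CPM without the most abundant miRNA, 66 at 1.5-fold, 4 at 4-fold, 16 with at least 50 reads in both libraries and 4 with a mean of at least 100 CPM. The 18 lower calls became 43 with median-of-ratios factors over the 7 libraries, 47 with those of the pair, 37 with the trimmed mean of M-values, 28 at 1.5-fold, 9 at 4-fold, 7 with at least 50 reads and 3 with a mean of at least 100 CPM. The median of all miRNAs (0.63) was 0.0701 with median-of-ratios factors over 7 libraries, 0.00 over the pair, 0.16 with the trimmed mean and 0.37 with the deposited scaling. The median of the miRNAs higher in TAD (0.84) was 0.28 with median-of-ratios factors, 0.37 with the trimmed mean, 1.12 at a 4-fold threshold and 1.17 with a mean of at least 100 CPM, and that of the lower ones (0.44) was -0.115 and -0.0289 under the first pair of these. The distance between T6-12A and T6-12K exceeded the median of the other culture pairs 1.37-fold, and 1.14 to 1.79-fold under the alternatives. Among the alternatives for single miRNAs (480 values) and lists (150 values), 223 and 87 moved by more than their counting interval, mostly where the scaling was changed, and no called value changed sign. Values near 0 that were not called could change sign with median-of-ratios factors over the 7 libraries. Examples were miR-210-3p (0.18 to -0.38), let-7f-5p (0.31 to -0.25) and the median of the mesenchymal list (0.30 to -0.26). Chosen after seeing the data, counting identical sequences once gave 33 and 18 calls, and leaving out miRNAs at 0 gave 32 and 16. The first of these could not merge the 43 miRNAs without a matched sequence. Among them were miR-486a-5p and miR-486b-5p, which were both still counted among the 18. Depth limited the sparse miRNAs, of which 5 reads were the least listed.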
